A study of Bos taurus with 6 samples.

Results

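The newest cattle miRNAs in these liver libraries are the mature miRNAs whose number in the name is 10000 or above. They were chosen by name alone, with any letter or arm suffix, and make up 129 of the 1030 mature miRNAs listed for each library. Their numbers run from 10020 to 12064, with 32 names up to 10225 and 97 names from 11971 on. Small RNA was sequenced from the livers of 3 grass-fed Wye Angus steers, 21 months old and raised on alfalfa, hay or pasture, and 3 grain-fed Wye Angus steers, 14 months old and raised on a ration of corn silage, shelled corn, soybean and minerals. Each animal gave 1 library, and diet, age at slaughter and library depth divide the animals in the same way, so that their parts cannot be told apart. Where 3 values are given for a diet, they stand in the order of replicates 1, 2 and 3. The labels number the replicates and do not state whether animals shared a pen, a litter or a day of slaughter.

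miRNAs are short RNAs cut from hairpin precursors by Drosha and Dicer, and they guide Argonaute proteins to messenger RNAs with matching sites, which are then repressed. miRBase hands out numbers roughly in the order of submission, so a high number marks an entry that was described late, mostly from deep sequencing of a single species. Such entries are often rare, and some come from short introns that are spliced and folded without Drosha (mirtrons). Others are a second name for a sequence that already had one, and reads of that sequence then fit both names.

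The deposited values were raw read counts for each pairing of a mature miRNA with a precursor, and the largest count over precursors stood for the mature miRNA. The totals over mature miRNAs then lay between 3824592 and 6133960 for the grass-fed group and between 464875 and 892929 for the grain-fed group. bta-miR-122, the main miRNA of hepatocytes, took between 14.9% and 31.7% of the counts in each of the 6 libraries. With a floor of 3 counts, a miRNA without a read may still have had up to 0.632 to 0.787 CPM (counts-per-million, scaled by the TMM method) in the grass-fed libraries and 2.92 to 5.32 CPM in the grain-fed libraries, for counting error only.

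Most of the newest miRNAs were at or near 0 in liver. No read was counted for 57 of the 129 in any library. Another 39 had at most 14 counts over the 6 libraries and did not pass the detection rule of more than 2 counts in at least 2 libraries. The other 33 passed it. Over both of these groups, 38 had between 1 and 9 counts over the 6 libraries together. The detected share was 25.6%, close to the 28.3% of the 413 miRNAs numbered from 2000 to below 3000 and under the 71.4% of the 353 miRNAs numbered below 1000. Of the 32 names up to 10225, 10 were detected, and of the 97 later names, 23. Among the 33 detected miRNAs, 16 had fewer than 50 counts over all libraries. Their median level, over the mean CPM of each, was 7.21 CPM, where the median of all 456 detected miRNAs was 15.6 CPM. It was 3.85 CPM for the detected miRNAs numbered from 2000 to below 3000 and 3.84 CPM for those from 3000 to below 10000. The 7.21 CPM is the mean over both diets of bta-miR-12030, which averaged 0.498 CPM in the grass-fed and 13.9 CPM in the grain-fed livers.

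More of them were detected in the deeper libraries. More than 2 counts were found for 32, 31 and 34 of the newest miRNAs in the grass-fed livers, and for 22, 20 and 18 in the grain-fed livers. The groups did not overlap, and the exact permutation test gave p = 0.1 (two-sided, n = 3 per group), the smallest value that 3 libraries against 3 allow. At the depth of the shallowest library, 464875 counts, the expected number was 11.3, 8.09 and 13.3 in the grass-fed and 17.9, 18.3 and 18.0 in the grain-fed libraries. At equal depth the expected number was thus higher in the grain-fed livers, with no overlap and p = 0.1 again in the exact permutation test (n = 3 per group). Over all mature miRNAs, 456, 453 and 440 had more than 2 counts in the grass-fed and 346, 328 and 309 in the grain-fed libraries. Without the 9 newest miRNAs called below, the deposited numbers were 24, 24 and 25 against 13, 11 and 9. No number at equal depth was computed for these sets, so the higher grain-fed number may rest on the 9.

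**Figure D1:**
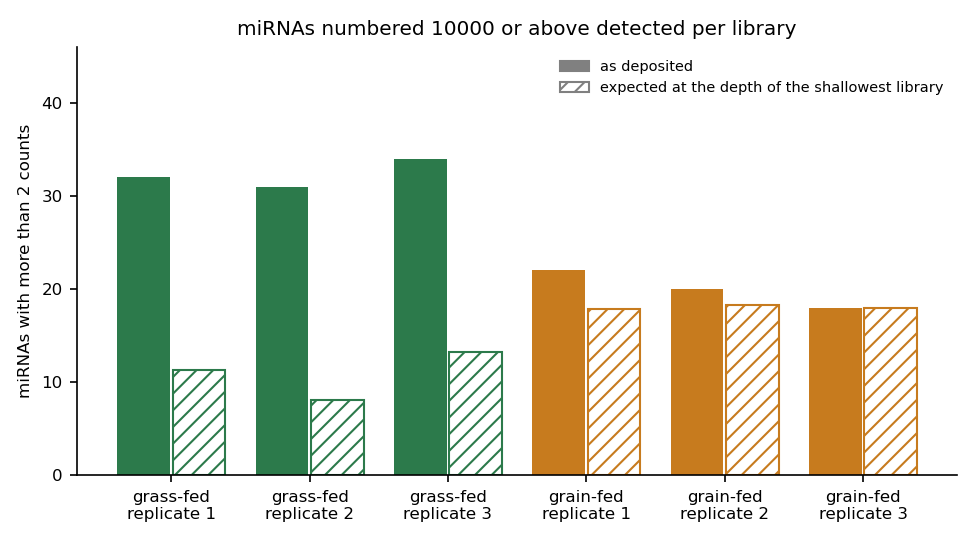
Number of miRNAs numbered 10000 or above with more than 2 counts in each library (y axis), for the 3 grass-fed and 3 grain-fed libraries (x axis). Filled bars give the counts as deposited, between 31 and 34 in the grass-fed livers and between 18 and 22 in the grain-fed livers, and hatched bars the number expected if each library were reduced to 464875 counts, between 8.09 and 13.3 in the grass-fed livers and between 17.9 and 18.3 in the grain-fed livers.

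All 129 miRNAs together held a small part of the miRNA counts. Their share was 0.188%, 0.136% and 0.202% in the grass-fed livers and 0.361%, 0.424% and 0.370% in the grain-fed livers. The grain-fed mean was 2.19 times the grass-fed mean, every grain-fed library lay above every grass-fed library, and the exact permutation test gave p = 0.1 (n = 3 per group), the smallest possible. Between 51.5% and 77.2% of these counts in each library belonged to bta-miR-10174-3p, whose reads are also listed under another name.

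Every library gave bta-miR-10174-3p the count of bta-miR-23b-3p. It was 6740, 6459 and 5445 in the grass-fed livers and 2200, 1385 and 909 in the grain-fed livers for both names. The files list both names under the precursor bta-mir-10174, and bta-miR-23b-3p also under its own precursor bta-mir-23b. miR-23b-3p is one of the miRNAs of the conserved miR-23/27/24 cluster and is abundant in many tissues. Under bta-mir-23b it had 4691, 3296 and 3799 counts in the grass-fed and 1505, 1019 and 607 counts in the grain-fed libraries, or between 51.0% and 73.6% of its count under bta-mir-10174. The deposited counts cannot assign these reads to either name, and this holds for the most abundant of the newest miRNAs. The other arm repeated this at a low level, since bta-miR-10174-5p as well as bta-miR-23b-5p had 6, 7 and 6 counts in the grass-fed livers and 2, 0 and 0 counts in the grain-fed livers.

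A second shared entry lay within the set. bta-miR-11975 is listed under bta-mir-11975 and under both precursors of bta-miR-11976, and the counts of the names were within 1 of each other in every library, with 36, 3 and 58 counts for bta-miR-11975 in the grass-fed livers and 156, 346 and 56 in the grain-fed livers. bta-miR-11976 had 36, 2 and 58 and the same grain-fed counts. These raw counts overlapped, with 58 in grass-fed replicate 3 and 56 in grain-fed replicate 3. Under its own precursor alone bta-miR-11975 had 8, 3 and 9 counts in the grass-fed livers and 70, 128 and 26 counts in the grain-fed livers. There each grain-fed library lay above each grass-fed library. The names are treated below as 1 measurement under both names. bta-miR-11989 also kept within 1 count of bta-miR-2285n and of bta-miR-296-5p, with 11, 13 and 7 counts in the grass-fed livers and 2, 1 and 1 in the grain-fed livers. Those names share no precursor in the files, and their counts are few.

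**Figure D2:**
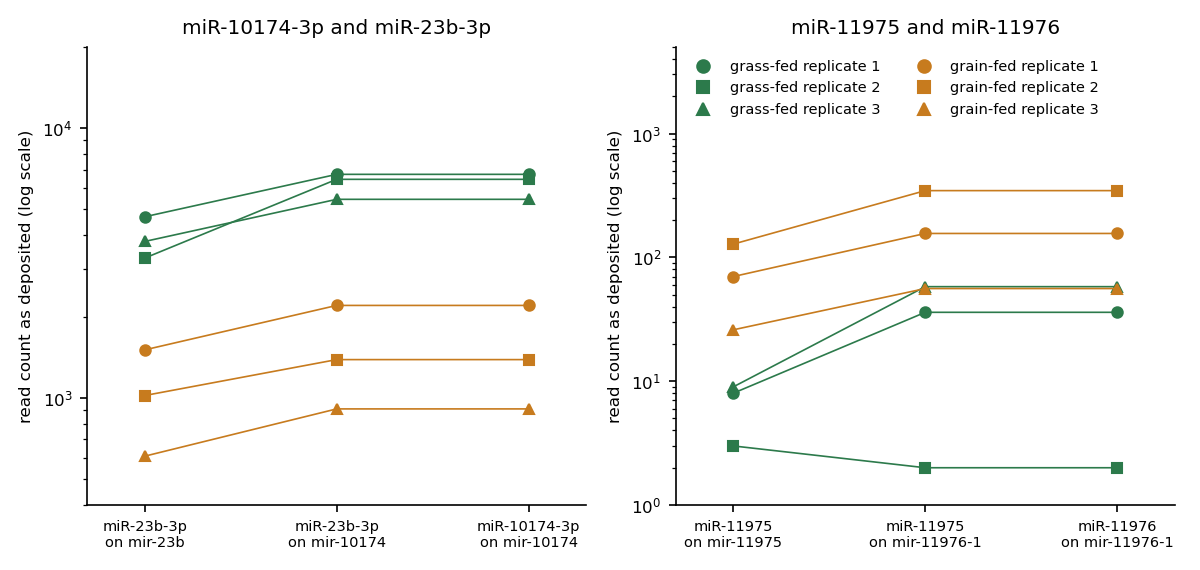
Read counts as deposited (y axis, log scale) for mature miRNAs under the precursors named on the x axis, 1 line for each library. bta-miR-23b-3p and bta-miR-10174-3p meet at the same value on bta-mir-10174 in each library, and bta-miR-11975 and bta-miR-11976 at the same value on bta-mir-11976-1, while the counts of bta-miR-23b-3p on bta-mir-23b are between 51.0% and 73.6% of those on bta-mir-10174.

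bta-miR-10172 gave nearly all its reads from the 3p arm. bta-miR-10172-3p, second in level after bta-miR-10174-3p, had 4651 counts over all libraries against 190 for bta-miR-10172-5p, and the 3p arm held between 94.5% and 97.5% of the reads of the hairpin in each library. Its level was 322, 249 and 353 CPM in the grass-fed livers and 265, 294 and 429 CPM in the grain-fed livers. The groups overlapped, and the log2 fold change of grass-fed against grain-fed liver was -0.09 (standard error 0.25, FDR = 0.877 in the edgeR quasi-likelihood test). In RefSeq's annotation of the assembly ARS-UCD2.0, later than the build of the files, its precursor lies in BEGAIN, a gene of the postsynaptic density.

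Diet groups were compared in a fit over all 456 detected miRNAs, with the quasi-likelihood test of edgeR and Benjamini-Hochberg adjustment over all of them. Of the 33 detected newest miRNAs, 9 were lower in grass-fed liver at FDR 0.1 and 0 were higher, while 10 had an unadjusted p under 0.05. The DESeq2 Wald test and the edgeR exact test each called 1 higher, bta-miR-10225a (FDR = 0.09998 and 0.0883), and limma-voom 0. Over all tested miRNAs 9.65% were called lower, 9.43% higher and 19.1% in either direction. The lower share of all calls was 50.6% here, 87.8% with scaling by total counts alone and 33.9% with upper-quartile scaling. Over all tested miRNAs the higher calls fell from 43 to 24 without grain-fed replicate 1 and to 13 without grain-fed replicate 2, where 36 were lower. The 9 are 27.3% of the 33, and become 8 when bta-miR-11975 and bta-miR-11976 are counted once. Each of the 33 already passed the detection rule within the deeper grass-fed libraries, and the share describes the detected miRNAs and not the 129. In the neighboring classes, 31.6% of the tested miRNAs numbered from 1000 to below 2000, 11.1% of those from 2000 to below 3000 and 7.69% of those from 3000 to below 10000 were called lower. Differences between the classes were not tested.

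The 9 lower miRNAs were bta-miR-11972, bta-miR-11975, bta-miR-11976, bta-miR-11985, bta-miR-11987, bta-miR-12004, bta-miR-12023, bta-miR-12030 and bta-miR-12034, all from the later block of numbers. Their log2 fold changes lay between -5.33 and -2.90 with a median of -4.67. The median over the 33 detected newest miRNAs was 0.03, or 0 with an empty group set at its bound, and the median over all 456 was 0.13, or 0.10 with empty groups at their bounds. CPM ranges did not overlap between the groups for these 9 and for 2 of the other 24, or 33.3% of the 33, near the 32.9% of all tested miRNAs. Of the 2, bta-miR-10182-5p had no grain-fed count, and the grain-fed floor lies above its grass-fed levels.

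**Figure D3:**
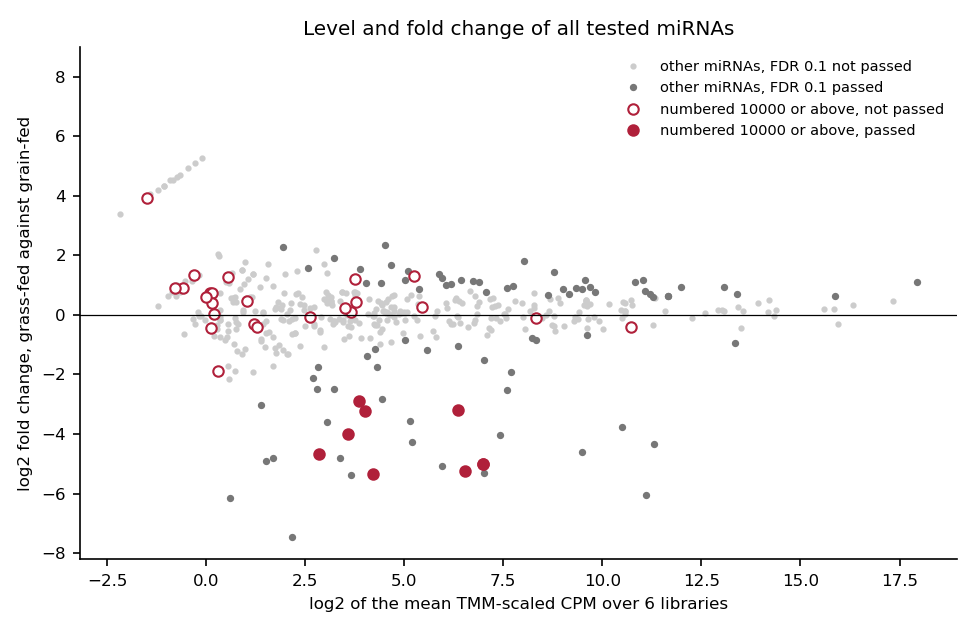
log2 of the mean TMM-scaled CPM over the 6 libraries (x axis) and log2 fold change of grass-fed against grain-fed liver (y axis) for the 456 tested miRNAs. The 9 filled red points, numbered 10000 or above and past FDR 0.1, lie between -5.33 and -2.90, and the 24 open red points did not pass.

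Raw counts were also compared before any scaling. Those of 2 of the 9, bta-miR-11972 and bta-miR-12034, did not overlap between the diets, and those of the other 7 did. The grain-fed libraries were shallower throughout. The summed grain-fed count was above the summed grass-fed count for 9 of the 9 lower miRNAs. It was above for 0 of the other 24 detected newest miRNAs and for 19 of the 423 tested miRNAs with lower numbers. At these depths the direction of the sums follows from the size of the fold changes, so it is no separate support for the calls. In the sums over the 9, the shared reads of bta-miR-11975 and bta-miR-11976 enter under both names. The 9 together had 167, 76 and 319 counts in the grass-fed livers and 619, 981 and 482 counts in the grain-fed livers. As parts of the library these were 32.9, 12.4 and 83.4 unscaled CPM in the grass-fed livers and 693, 1545 and 1037 unscaled CPM in the grain-fed livers, that is, per total miRNA count without the TMM factor. The grain-fed mean was 25.4 times the grass-fed mean, with no overlap, a description only, since the 9 were chosen here for their difference. The newest miRNAs outside the 9, leaving out both arms of bta-miR-10174, made up 519, 298 and 515 unscaled CPM in the grass-fed livers and 455, 510 and 710 in the grain-fed livers. Here the diets overlapped.

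**Figure D4:**
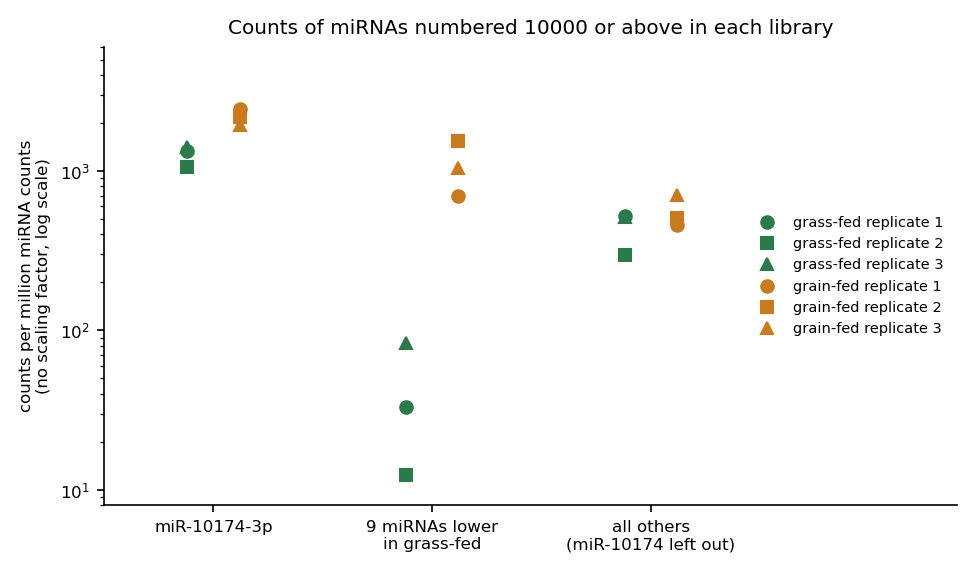
Unscaled CPM, without the TMM factor (y axis, log scale) for bta-miR-10174-3p, for the summed 9 miRNAs that were lower in grass-fed liver and for all other miRNAs numbered 10000 or above without the bta-miR-10174 arms, 1 point for each library. The shared reads of bta-miR-11975 and bta-miR-11976 enter the summed 9 under both names. The summed 9 lie between 12.4 and 83.4 in the grass-fed livers and between 693 and 1545 in the grain-fed livers. The last group overlaps between the diets.

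bta-miR-11972 had the smallest FDR of the newest miRNAs. Its raw count was 13, 10 and 35 in the grass-fed livers and 107, 123 and 147 in the grain-fed livers, and its level was 2.74, 2.36 and 9.19 CPM against 104, 174 and 261 CPM. Both the raw counts and the levels were separate between the diets. Grass-fed liver averaged 4.76 ± 3.84 CPM and grain-fed liver 180 ± 78.4 CPM (SD, 3 animals each), and the log2 fold change was -5.24 with a standard error of 0.49 (edgeR FDR = 1.13e-05). Its precursor lies in BIRC6, which codes for a large ubiquitin-conjugating enzyme that restrains apoptosis.

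The reads shared by bta-miR-11975 and bta-miR-11976 reached the highest level among the 9. For bta-miR-11975 the level was 7.58, 0.707 and 15.2 CPM in the grass-fed livers and 152, 490 and 99.3 CPM in the grain-fed livers. The animals differed widely within each diet, and the groups remained separate. Grain-fed liver was 31.5 times the grass-fed mean for bta-miR-11975 and 31.8 times for bta-miR-11976, whose log2 fold change was -5.01 with a standard error of 0.73 (edgeR FDR = 0.000454 for each name). Without grain-fed replicate 2, the highest library, the value was -4.12. The precursor of bta-miR-11975 lies in MIA3, which codes for a protein that helps to export collagen from the endoplasmic reticulum, and bta-mir-11976-1 lies in PATZ1, which codes for a zinc finger transcription factor.

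bta-miR-11985 had 12.4, 4.24 and 31.2 CPM in the grass-fed livers and 79.9, 87.8 and 277 CPM in the grain-fed livers. Its raw counts overlapped, with 59, 18 and 119 against 82, 62 and 156, and separation appeared only once depth was taken into account. Its log2 fold change was -3.18 with a standard error of 0.62 and FDR = 0.00343 in edgeR, the largest FDR among the 9 and the nearest to the threshold from inside. Leaving out grain-fed replicate 3, its highest library, left a value of -2.42 (FDR = 0.0396). Its precursor lies in PARVB, which codes for parvin beta, an adaptor of focal adhesions.

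bta-miR-12034 had 5, 0 and 6 counts in the grass-fed livers and 32, 44 and 8 counts in the grain-fed livers. The level was 1.05, 0 and 1.57 CPM in the grass-fed livers, where the 0 allows up to 0.707 CPM, and 31.2, 62.3 and 14.2 CPM in the grain-fed livers. No library of one diet reached the range of the other. At -5.33 with a standard error of 0.65 (edgeR FDR = 0.000111), the log2 fold change was the lowest of the 9. The precursor lies in SNX5, which codes for a sorting nexin of endosomes, and 1 gene annotated as a snoRNA lies within 10 kb of it.

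bta-miR-12030 was the least counted of the 9. It had 0, 3 and 3 counts in the grass-fed livers and 13, 3 and 14 counts in the grain-fed livers, or 0, 0.707 and 0.787 CPM against 12.7, 4.25 and 24.8 CPM. The grass-fed levels were at the floor of their libraries, and grain-fed replicate 2 was at its own floor of 4.25 CPM. It changed by -4.67 on the log2 scale with a standard error of 0.75 (edgeR FDR = 0.000763). Its precursor lies in the lncRNA gene LOC112448761.

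bta-miR-12023 had 3, 5 and 10 counts in the grass-fed livers and 27, 18 and 9 counts in the grain-fed livers, which is 0.632, 1.18 and 2.62 CPM against 26.3, 25.5 and 16.0 CPM. The grain-fed animals were close to each other, with a mean of 22.6 ± 5.74 CPM (SD, n = 3). Grass-fed against grain-fed liver gave -3.99 on the log2 scale with a standard error of 0.48 (edgeR FDR = 0.000103). Its precursor lies in GPR137, which codes for a membrane protein of the lysosome.

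bta-miR-12004 lies in SELENOP, the gene of selenoprotein P, which the liver secretes to carry selenium to other organs. Its count was 11, 10 and 21 in the grass-fed livers and 24, 15 and 18 in the grain-fed livers, and its level was 2.32, 2.36 and 5.51 CPM against 23.4, 21.2 and 31.9 CPM. Raw counts overlapped and levels did not. With a standard error of 0.42 and FDR = 0.000454 in edgeR, the log2 fold change of -2.90 was the smallest in size among the 9, and the mean grain-fed level was 7.52 times the mean grass-fed level.

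bta-miR-11987 lies in no gene of that annotation. It had 4, 25 and 9 counts in the grass-fed livers and 22, 24 and 18 counts in the grain-fed livers. The level was 0.842, 5.89 and 2.36 CPM in the grass-fed livers and 21.4, 34.0 and 31.9 CPM in the grain-fed livers, again with no overlap. On the log2 scale the change was -3.23 with a standard error of 0.53 (edgeR FDR = 0.000982), and the mean grain-fed level of 29.1 ± 6.73 CPM was 9.60 times the grass-fed mean of 3.03 ± 2.59 CPM (SD, n = 3 each).

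**Figure D5:**
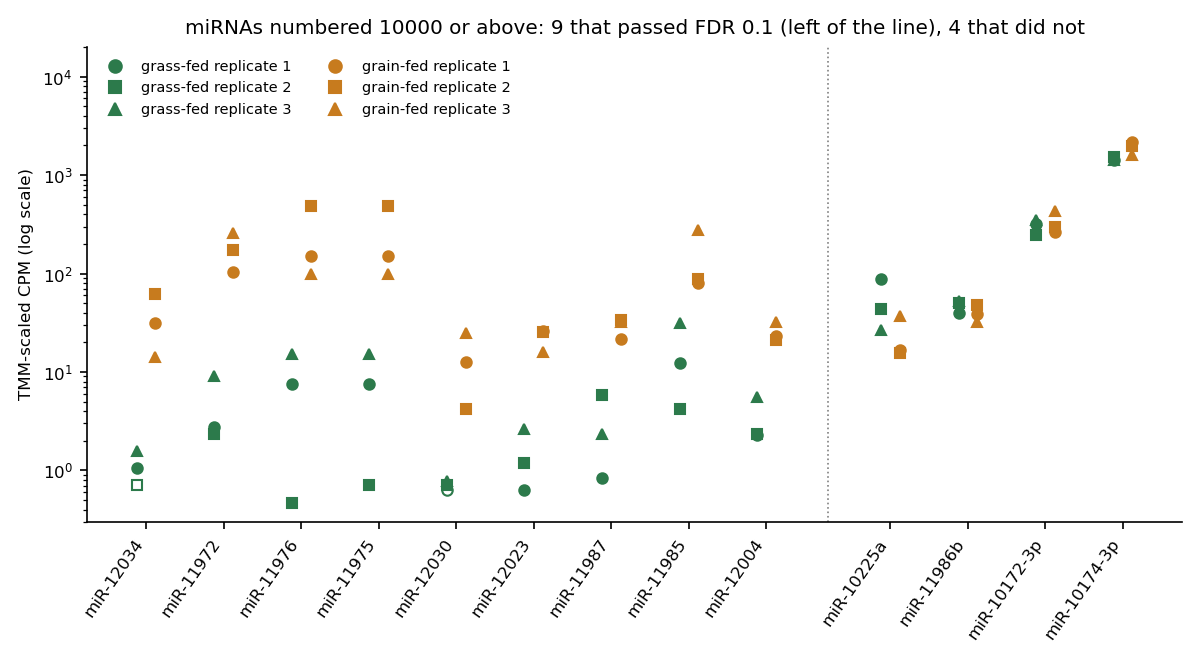
TMM-scaled CPM (y axis, log scale) in each library for the 9 miRNAs that passed FDR 0.1, left of the dotted line, and for 4 others, right of it. Filled symbols are measured levels, and open symbols stand at the level of 3 counts where the count was 0. For each of the 9, the 3 grain-fed points lie above the 3 grass-fed points, and the 4 on the right did not pass the test.

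Of the 9 lower miRNAs, among which bta-miR-11975 and bta-miR-11976 are the same reads, 8 were highest among the grass-fed libraries in replicate 3, and the lowest grass-fed library was replicate 2 for 5 of them and replicate 1 for 4. In the grain-fed group the highest library was replicate 3 for 4, replicate 2 for 4 and replicate 1 for 1. The coefficient of variation of the 9 lay between 54.0% and 95.1% in grass-fed liver, where 1 count more or less is a large part of the value for several of them.

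The 24 detected newest miRNAs outside the 9 did not pass the test. For the 23 with counts in both groups the log2 fold changes lay between -1.89 and 1.33, with standard errors from 0.20 to 1.31. bta-miR-10182-5p had 3, 2 and 4 counts in the grass-fed livers and 0 in each grain-fed library, where the floor lies above those grass-fed levels, so that a difference was not detectable at this depth. bta-miR-10225a was the nearest to the threshold from outside, with 88.8, 44.1 and 26.8 CPM in the grass-fed livers and 16.6, 15.6 and 37.3 CPM in the grain-fed livers. Its ranges overlapped, and the log2 fold change was 1.29 (standard error 0.51, FDR = 0.130, edgeR). Without grass-fed replicate 1, its highest library, the value was 0.61 (FDR = 0.386). The similarly named bta-miR-10225b had a value of 1.19 (standard error 0.63, FDR = 0.249), with 30.7, 10.1 and 13.4 CPM against 3.90, 8.49 and 14.2 CPM, and its precursor lies in DMBT1, which codes for a scavenger receptor of epithelial surfaces.

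For 3 other miRNAs of the set the levels overlapped between the diets. bta-miR-11986b, whose precursor lies in OCLN, the gene of the tight junction protein occludin, had 40.0, 50.7 and 52.2 CPM in the grass-fed livers and 39.0, 48.1 and 31.9 CPM in the grain-fed livers, and its log2 value was 0.25 with a standard error of 0.28 (edgeR FDR = 0.643). bta-miR-11995 had 10.7, 12.0 and 13.1 CPM against 4.87, 15.6 and 12.4 CPM, and bta-miR-11991, in the gene of the lipid transfer protein OSBPL9, had 13.7, 21.2 and 13.9 CPM against 15.6, 12.7 and 5.32 CPM. The shared reads of bta-miR-10174-3p had 1419, 1522 and 1429 CPM in the grass-fed livers and 2143, 1961 and 1613 CPM in the grain-fed livers. These ranges did not overlap, and the log2 fold change of -0.39 (standard error 0.20) did not pass, with FDR = 0.225 in edgeR. It passed with no scaling factor beyond the total count (FDR = 0.0227) and with a filter of at least 10 counts in 3 libraries (FDR = 0.0625).

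In that RefSeq annotation 121 of the 128 precursors numbered 10000 or above were matched by name, and 93 of them (76.9%) lie over a protein-coding gene, 6 over a lncRNA gene only and 22 over no annotated gene. The corresponding share was 54.5% for precursors numbered below 1000 and 71.5% for those from 2000 to below 3000. In the other classes it was 62.2% from 1000 to below 2000 and 78.7% from 3000 to below 10000, the last above the share of the newest miRNAs. The precursors of the newest miRNAs were short, with a median annotated length of 62 bases against 85 for the numbers below 1000 and 72 for the numbers from 2000 to below 3000. Another miRNA gene lay within 10 kb of 6 of the 121 (4.96%), against 54.5% of the precursors numbered below 1000, where clusters such as miR-17/92 are common. The share was 8.89% from 1000 to below 2000, 8.02% from 2000 to below 3000 and 36.0% from 3000 to below 10000. Of the 9 lower miRNAs, 7 had a precursor over a protein-coding gene, 1 over a lncRNA gene and 1 over no gene. The annotation table used gives no strand, and levels of the host mRNAs were not analysed here.

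Markers of other cell types were read out beside these results. The 3 pancreatic miRNAs (bta-miR-216a, bta-miR-216b and bta-miR-217) were all lower in grass-fed liver at FDR 0.1, with a summed level between 0.236 and 1.31 CPM in the grass-fed livers and between 0 and 58.0 CPM in the grain-fed livers. Grain-fed replicate 3 had no count of any of them, and its floor of 5.32 CPM for each miRNA lies above the summed grass-fed levels. The hepatocyte marker bta-miR-122 was higher in grass-fed liver, with 280489 to 457497 CPM against 122839 to 194410 CPM. Of 4 mesenchymal miRNAs 2 were higher, with a summed level of 77102 to 112487 CPM against 71668 to 84596 CPM, and of 5 biliary miRNAs 1 was lower and 1 higher, with a summed level of 599 to 880 CPM against 442 to 704 CPM. The summed levels of the 4 leukocyte miRNAs ran from 729 to 975 CPM in the grass-fed livers, against 908 to 1096 CPM in the grain-fed livers, and those of the 3 erythroid, the 2 endothelial and the 3 skeletal muscle miRNAs overlapped in the same way. Their part in the result was not tested, and in whole liver fewer cells of a type and less RNA per cell cannot be told apart.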

How the data were processed

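Per the labels and the methods of the study, small RNA of 6 liver libraries was size-selected and sequenced, and the authors removed adapters, low-quality reads and reads outside a length range, used ARS-UCD1.2 as the genome for mapping, and obtained known miRNAs (miRBase 22) from miRDeep2, of a version not given in the sources used here. Read counts as deposited by the authors are raw whole numbers, 1207 pairs of mature miRNA and precursor per library. The deposited CPM, scaled to all pairs by the authors, was not used.

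The largest count over precursors was taken per mature miRNA. miRNAs with more than 2 counts in at least 2 libraries were tested with the quasi-likelihood test of edgeR 4.0.16 (R 4.3.3, glmQLFit without the legacy option, TMM scaling) over all 456 miRNAs, with FDR 0.1 as in the study. Standard errors are the size of the log2 fold change over the square root of F. The test was checked on simulated counts. Alternatives used DESeq2 1.42.0, limma 3.58.1 (voom), other scalings, filters and precursor rules, a replicate block and each library left out. The expected number detected at equal depth is the hypergeometric expectation.

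The set and all lists were chosen with earlier results of these data known. Named are the called miRNAs, the 5 highest in level, those sharing counts, the nearest on each side of FDR 0.1 and those in the study's table of DEmiRNAs; bta-miR-10172-5p, bta-miR-10182-5p, bta-miR-10225b, bta-miR-11986b, bta-miR-11991, bta-miR-11995, bta-miR-12042 and bta-miR-12044 were added after their values were seen. Replicates within a group differed beyond counting noise. p-values cover the spread between these animals. Gene overlap came from RefSeq's ARS-UCD2.0 table by precursor name, with no coordinates used across builds. miRNA sequences were not analysed here.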

Additional observations from a re-analysis of the deposited data

How the results depend on the processing

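The 9 lower miRNAs kept their direction and passed FDR 0.1 in each alternative in which they were fitted, with 0 losses. bta-miR-12030 and bta-miR-12034 fell under the filter of 10 counts in 3 libraries, and bta-miR-11976 is merged where shared entries are joined. The number called lower lay between 8 and 12 over the 18 alternatives, and was 9 at FDR 0.05 and 10 with total counts alone. Outside the 9, bta-miR-10174-3p was called lower with total counts alone (FDR = 0.0227) and with the filter of 10 counts in 3 libraries (FDR = 0.0625). Leaving out each library in turn gave 9 lower each time, and 0 to 1 higher. The 1 higher miRNA was bta-miR-10225a. It was called with upper-quartile scaling (log2 fold change 1.48, FDR = 0.0865) and the DESeq2 Wald test (1.16, FDR = 0.09998). The edgeR exact test (1.24, FDR = 0.0883) and the fit without grass-fed replicate 3 (1.53, FDR = 0.0615) also called it. With DESeq2 size factors it was not called (FDR = 0.168). Without grass-fed replicate 1 its value was 0.61 (FDR = 0.386). The same replicate numbers occur in both diets, and with the replicate block 9 were lower and 1 higher, again bta-miR-10225a (FDR = 0.0430). No pairing of the animals by number was seen. The deviations of same-numbered libraries had correlations of -0.05, -0.20 and -0.01, and no sample correlated best with its own number. With so few libraries this cannot exclude a shared pen or day.

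The number of newest miRNAs detected was 72 with no filter on low counts and 16 with at least 10 counts in 3 libraries, and between 29 and 33 with each library left out. The mean number per library was 12.3 higher in grass-fed as deposited and turned to -7.19 at the depth of the shallowest library. Leaving out each library it lay between 11.3 and 13.3. The difference in share stayed negative, from -0.226 to -0.0899 percentage points. bta-miR-10172-3p turned from -0.09 to 0.13 with upper-quartile scaling, to 0.05 without grass-fed replicate 2 and to 0.12 without grain-fed replicate 3, never called. Each library left out gave -0.27 to 0.12. Leaving out grass-fed replicate 3 moved bta-miR-11972 from -5.24 to -6.15, bta-miR-11976 from -5.01 to -5.96, bta-miR-11985 from -3.18 to -4.13, bta-miR-12023 from -3.99 to -4.71 and bta-miR-12034 from -5.33 to -5.99, and leaving out grass-fed replicate 2 moved bta-miR-11987 from -3.23 to -4.17. Over all tested miRNAs, the log2 fold changes had a median of 0.13 with TMM, 0.31 with upper-quartile scaling and -0.29 with total counts alone, and the lower share of all calls 50.6%, 33.9% and 87.8%. The causes were not tested.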

Other observations

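With no filter on low counts, edgeR called 3 more of the newest miRNAs, each lower in grass-fed liver. bta-miR-11988 had 0, 0 and 1 counts in the grass-fed livers and 1, 4 and 2 in the grain-fed livers (FDR = 0.0185). bta-miR-12044, whose precursor lies in ELF1, the gene of an ETS family transcription factor, had 2, 0 and 1 counts against 2, 3 and 1 (FDR = 0.0389). bta-miR-12042, with a precursor in TXNDC11, had 0, 1 and 1 counts against 0, 2 and 3 (FDR = 0.0865). Each had fewer than 10 counts in all, and their raw counts overlapped between the diets.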
